A study of Mus musculus with 6 samples.

Results

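The comparison described here set CD34+Flt3hi against CD34+Flt3- cells of the LSK fraction of mouse bone marrow, and its members were the arrays whose titles named those 2 gates, 4 of the 6 arrays of the series. LSK cells are lineage-negative cells that carry Kit and Sca1, the fraction of marrow in which blood stem cells and the earliest multipotent progenitors are found. All groups came from the marrow of adult mice 10 to 14 weeks old, with no genotype or treatment named in the labels. The cells were sorted by flow cytometry directly into lysis buffer, and their RNA was purified on micro columns, amplified by in vitro transcription with a small-sample protocol, labelled with biotin and hybridised to Affymetrix expression arrays. Each gate had 2 arrays, and the 2 arrays of the third gate, CD34-Flt3- LSK cells, entered the fit and are given as context. Its stated aim was to find genes whose expression accompanies the functional differences between these gates. Whether the 2 arrays of a gate came from separate mice or separate sorts is not stated in the labels, so p-values measure only the spread between arrays, which may be technical.

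In the usual scheme of mouse haematopoiesis, long-term stem cells lie in the CD34-Flt3- gate, cells with short-term repopulating activity in the CD34+Flt3- gate, and lymphoid-primed multipotent progenitors among the cells with the most Flt3. Flt3 is a receptor tyrosine kinase whose ligand supports early lymphoid and dendritic progenitors. Gaining it is linked to a loss of megakaryocyte and erythroid potential while lymphoid, granulocyte and monocyte potential is kept. Terminal transferase, the recombinase genes, Satb1 and Notch1 are among the genes used to describe the lymphoid side of this step, and Gata2, Itga2b and Pf4 among those used for the other side.

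Values are log2 intensities, 1 probe set per gene, for 18193 genes, and a difference is CD34+Flt3hi minus CD34+Flt3- on that scale. A gene is said to have risen or fallen where limma's moderated test over all 6 arrays gave a Benjamini-Hochberg adjusted p under 0.05. Background was taken from probe sets for bacterial controls and was 4.50 on the log2 scale. The titles carry codes of unstated meaning. Code A held replicate 2 of both gates and code B held replicate 1 of both, so each code gives its own difference from 1 array per gate. Of the CD34-Flt3- arrays, replicate 2 was also in code A and replicate 1 was alone in code C. The median linear intensity of the 4 arrays lay between 30.1 and 31.0. The 2 CD34+Flt3hi arrays differed over 2-fold in 112 genes and the 2 CD34+Flt3- arrays in 476.

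By that test 111 genes differed, 0.61% of those tested. Of these 70 were higher in CD34+Flt3hi cells (0.385% of the genes tested) and 41 were lower (0.225%), while 1229 genes had an unadjusted p under 0.05. The median difference of all genes was 0.03. The shares that rose and fell and this median are the reference for every gene list below. The lists were chosen with earlier results of these data known. In all 111 genes the arrays of the gates did not overlap, which 40.4% of all genes also showed, 22.7% upward and 17.7% downward. The difference was at least 2-fold in 110 of them. It was at least 4-fold in 39 of the genes that rose and 24 of those that fell. A change of at least 2-fold in both codes, which needs no model, was found upward in 154 genes (0.846%) and downward in 92 (0.506%). These held 69 of the 70 rises and 39 of the 41 falls, and 1 gene changed 2-fold in opposite directions. Across genes, which are not independent replicates, the differences of the codes correlated with a Pearson r of 0.43 and a Spearman rho of 0.24.

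**Figure D1:**
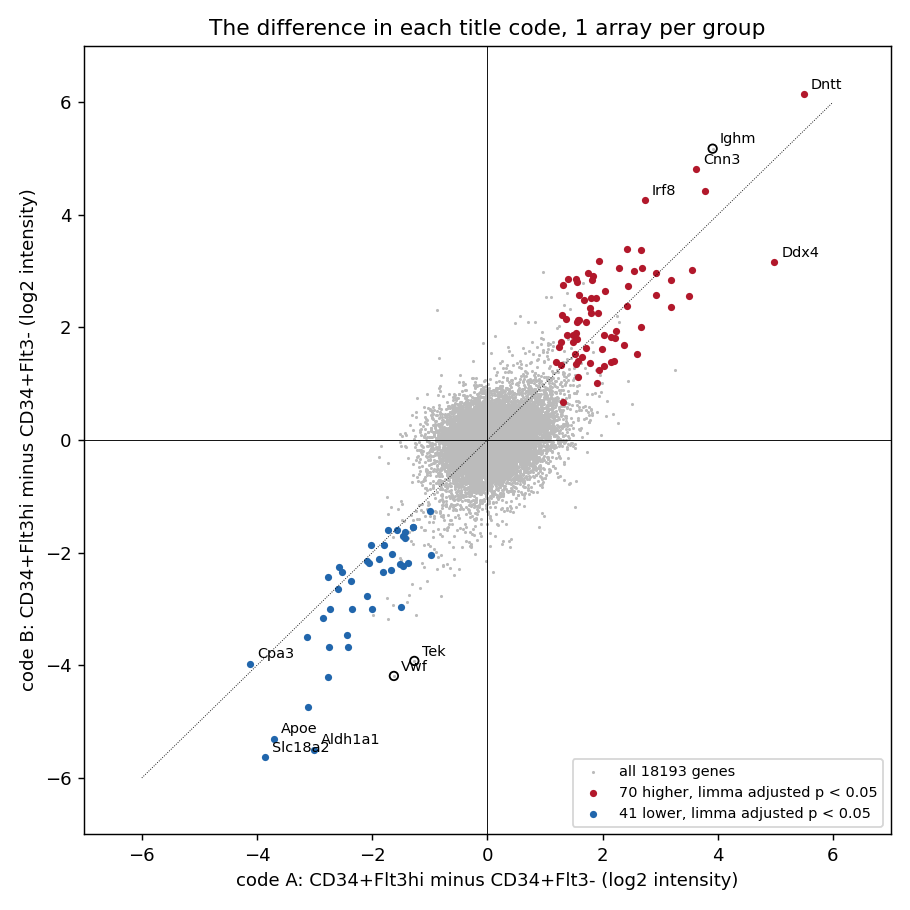
Difference between CD34+Flt3hi and CD34+Flt3- cells (log2 intensity) in code A on the horizontal axis and code B on the vertical axis, 1 point per gene, with 1 array per gate in each code. Genes past limma's threshold are red (70 higher) or blue (41 lower), the dotted line marks equal differences, and open circles are Ighm, Vwf and Tek, which did not pass. Dntt is farthest out among the rises at 5.49 and 6.15, and Vwf and Tek lie far below the line.

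The count of calls depended on single arrays and on what enters the error. Refits without CD34+Flt3hi replicate 1, CD34+Flt3hi replicate 2 or CD34+Flt3- replicate 1 gave 16, 13 and 11 rises and 6, 6 and 7 falls. Leaving out CD34+Flt3- replicate 2 gave 26 rises and 30 falls. These refits take the lone array of a gate to vary as the other gates do. With only the 4 arrays compared, 199 genes were higher and 101 lower, and these 300 included all 111. Leaving out CD34-Flt3- replicate 1 gave 199 and 101, and leaving out its replicate 2 gave 192 and 98. Treating the title code as a fixed block gave 444 rises (2.44%) and 226 falls (1.24%), all 111 among them. Since CD34-Flt3- replicate 1 was alone in its code, the spread of that gate leaves the error of this fit too. Normalising by quantiles again turned the split of 70 to 41 into 61 to 69, with a median difference of -0.02 over all genes. Only 9 of the 111 genes passed in each of the refits that left out 1 of the 4 arrays, and these were Dntt, Tpm4, Ctss, Cd300lb and Arpp21 among the rises and Apoe, Cpa3, Gata2 and Gng11 among the falls.

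The 2 CD34+Flt3- arrays did not lie at the same distance from the CD34+Flt3hi arrays. In 37 of the 41 genes that fell, replicate 1 of CD34+Flt3- cells was above replicate 2, whereas it was above in 59.5% of all genes. The median of replicate 1 minus replicate 2 was 0.52 over the 41 and 0.09 over all genes. Among the 70 rises replicate 1 was the lower one in 41, and the median of replicate 1 minus replicate 2 was -0.13 over the 70. The median change of the falling genes was -2.35 in code B and -2.05 in code A, and that of the rising genes 2.19 and 1.86. For the CD34+Flt3hi arrays the signed median of replicate 1 minus replicate 2 was 0.04 among the falls and 0.05 among the rises. Opposite signs cancel in such a median, and single genes lay further apart, as did Ddx4 at 6.79 and 8.70.

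Of the sort antigens, Flt3 itself read 12.01 and 11.75 in CD34+Flt3hi cells against 8.84 and 9.81 in CD34+Flt3- cells. Since the gates were set on that protein, this describes the sort. Cd34 read 11.35 and 11.34 against 10.51 and 10.68, and its difference of 0.75 did not pass (limma adjusted p = 0.395). Kit, on which all cells were selected, overlapped between the gates, at 9.63 and 9.22 against 10.26 and 8.82. No probe set named Ly6a, which encodes Sca1, alone, and it is not analysed here.

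Genes of antigen receptor assembly held the largest rise of the whole comparison and little else that passed. Dntt (Entrez gene 21673) encodes terminal transferase, which adds untemplated nucleotides at the joints of immunoglobulin and T cell receptor genes. It read 12.59 and 12.61 in CD34+Flt3hi cells, 6.44 and 7.11 in CD34+Flt3- cells and 7.26 and 7.20 on the CD34-Flt3- arrays. Both Flt3- gates thus lay far below the CD34+Flt3hi gate, with no overlap. Its other probe sets differed by 4.28 to 5.16, and its adjusted p stayed at or below 0.00184 whichever of the 4 arrays was left out. In RNA from whole gates, more cells of a type and more RNA per cell cannot be told apart, here or in any result that follows.

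Dntt was the only 1 of the 12 measured genes of antigen receptor recombination and the pre-B receptor to pass the test, and their median difference was 0.32. Ighm, the immunoglobulin mu heavy chain gene, came next in size. It read 11.43 and 11.50 in CD34+Flt3hi cells against 6.26 and 7.58 in CD34+Flt3- cells, a difference of 4.54 ± 1.45 (SE) in arrays that did not overlap. Its CD34-Flt3- arrays read 11.59 and 5.38, and that gap enters the error of the fit, in which Ighm did not pass (limma adjusted p = 0.385). With only the 4 arrays compared its adjusted p was 0.00011, with the mean of its probe sets it was 0.722, and without 1 of the 4 arrays it was 0.721 or more. Its other 10 probe sets differed by -0.61 to 4.73. The recombinase genes were dim: Rag1 lay below background in both gates, and Rag2 read 6.56 and 6.40 against 5.16 and 6.15 (adjusted p = 0.739). Vpreb1, Igll1 and Vpreb3, which encode surrogate light chain parts or a related protein, differed by 0.32, -0.25 and -0.32, and none of them passed.

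Among transcription factors with roles in lymphoid cells, 2 of 28 measured genes rose and none fell, with a median difference of 0.14. Over all genes 0.385% rose. Satb1 (Entrez gene 20230) encodes a chromatin organiser that supports lymphoid output from stem cells. It read 11.32 and 11.09 in CD34+Flt3hi cells and 7.93 and 8.67 in CD34+Flt3- cells, a 7.50-fold rise (2.91 ± 0.29, SE; adjusted p = 0.00249). Its CD34-Flt3- arrays were lower again, at 6.91 and 6.75, and its other probe sets differed by 0.34 to 3.38. Irf8 (Entrez gene 15900), a factor of monocytes, dendritic cells and B cells, read 10.11 and 9.57 against 5.86 and 6.84, and its difference was 2.73 in code A and 4.26 in code B. Its other probe set differed by 1.80.

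The factors that set B and T cell identity were dim or did not differ beyond their spread. Ebf1 and Pax5, which commit cells to the B lineage, lay below background in CD34+Flt3hi cells, as did Spib, Irf4, Pou2af1 and the T lineage factor Bcl11b. Bcl11b read 4.12 and 4.11 against 6.01 and 4.39 (adjusted p = 0.661). Other lymphoid regulators did not pass either. Sox4 read 11.13 and 10.65 against 10.12 and 9.53 (difference 1.07, adjusted p = 0.203), and Mef2c 10.79 and 10.75 against 10.13 and 9.38 (1.02, adjusted p = 0.184). Ikzf1, the Ikaros gene, read 10.68 and 10.89 against 9.95 and 9.59 (1.01, adjusted p = 0.184). In each of these 3 genes the arrays of the gates did not overlap, as in 22.7% of all genes upward. The other 7 probe sets of Sox4 differed by -0.41 to 0.32. The E protein gene Tcf3 (0.11) and Runx1 (0.10) read nearly the same in both gates, with adjusted p-values of 0.99 and 0.992.

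Notch1 stood alone in its pathway. The receptor gene (Entrez gene 18128) read 9.95 and 10.15 in CD34+Flt3hi cells and 7.22 and 7.71 in CD34+Flt3- cells, a 6.02-fold rise (2.59 ± 0.26, SE; adjusted p = 0.00256; code A 2.44, code B 2.74). The CD34-Flt3- arrays, at 8.27 and 8.06, lay between them. Its other probe set differed by 1.33. The other 29 measured members of the list of 30 did not pass, and the median of the list was 0.02. Of the other receptors, Notch2 differed by 0.18, and Notch3 and Notch4 lay below background in both gates. The ligand genes Jag2 (0.40), Dll4 (0.22), Jag1 (0.00) and Dll1 (-0.05) did not pass. Among direct targets of the pathway, Hes1 differed by 0.36, Dtx1 by -0.31 and Nrarp by -0.44, while the T cell targets Il2ra and Ptcra differed by 0.05 and -0.06. Hes1 moved with the code, at 5.26 in code B against 7.32 in code A of the CD34+Flt3hi arrays and 5.11 against 6.76 in CD34+Flt3- cells. The gene for the DNA-binding partner of Notch, Rbpj, read 8.68 and 8.61 against 8.69 and 7.86.

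Lymphoid receptor and surface protein genes lay higher as a group in CD34+Flt3hi cells, with a median of 0.48 over 29 measured genes against 0.03 for all genes, and 20 of the 29 had both CD34+Flt3hi arrays above both CD34+Flt3- arrays, as had 22.7% of all genes. Only 2 rose by the test and none fell, where 0.385% of all genes rose. Cd69, an early activation antigen that retains lymphocytes in tissue, read 9.91 and 9.86 against 7.56 and 6.68 (difference 2.77 ± 0.41, SE; adjusted p = 0.0176). The tetraspanin gene Cd53 read 10.80 and 10.31 against 8.22 and 8.73 (difference 2.08 ± 0.30; adjusted p = 0.0158). In both genes the CD34-Flt3- arrays were lower still, at 4.65 and 5.82 for Cd69 and 6.52 and 7.05 for Cd53. Of the members that missed the threshold, Itgal, the integrin chain of LFA-1, read 7.32 and 7.91 against 6.13 and 6.18 (1.46, adjusted p = 0.0755), while its other probe set differed by -0.28. Il7r, the receptor gene of the main lymphoid growth factor, read 5.24 and 6.30 and was below background in CD34+Flt3- cells (4.41 and 4.44; adjusted p = 0.215). The thymus-homing receptor gene Ccr9 read 4.69 and 6.79 against 3.45 and 3.53 (adjusted p = 0.132). The pan-leukocyte gene Cd48 (0.93) and Cd27 (0.36), both used to tell progenitors from stem cells, did not pass either.

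Antigen presentation genes showed the highest list median apart from the sort antigens, 0.60 over 11 genes of MHC class II presentation, and 2 of them rose. Ctss encodes cathepsin S, the protease that trims the invariant chain. It read 10.89 and 10.47 against 7.85 and 7.78, a 7.29-fold rise (2.87 ± 0.24, SE; adjusted p = 0.00129). Its CD34-Flt3- arrays lay between the other gates, at 9.09 and 9.06. H2-Ob, a chain of the H2-O modulator of peptide loading, read 8.97 and 9.46 against 7.28 and 7.09 (difference 2.03 ± 0.31; adjusted p = 0.0213), while its partner chain H2-Oa read 7.37 and 7.13 against 7.59 and 7.75. The classical chains differed by 0.82 (H2-Aa), 0.81 (H2-Eb1) and 0.57 (H2-Ab1), and the invariant chain gene Cd74 by 1.41, all short of the threshold. For H2-Aa and H2-Eb1 both CD34-Flt3- arrays lay above both CD34+Flt3hi arrays, and for Cd74 they overlapped with them, while the CD34+Flt3- arrays were the lowest for all 3 genes.

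The myeloid genes did not move one way. Of 31 granulocyte and monocyte genes 2 rose, 1 fell and the median was 0.21, where 0.385% of all genes rose and 0.225% fell. Csf1r, the receptor gene for macrophage colony-stimulating factor, read 9.57 and 8.89 against 6.82 and 7.58 (difference 2.03 ± 0.36, SE; adjusted p = 0.0447; code A 1.31, code B 2.75). Anxa3, an annexin gene of neutrophils and monocytes, read 7.34 and 6.79 against 5.23 and 5.08 (difference 1.91 ± 0.31; adjusted p = 0.0268). Ms4a3, a membrane protein gene of granulocyte and monocyte progenitors, fell 5.35-fold, from 7.25 and 7.59 to 4.99 and 5.01 (adjusted p = 0.00565). The CD34-Flt3- arrays, at 5.70 and 5.28, were also below the CD34+Flt3- arrays.

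Granule genes did not differ beyond their spread. Mpo, the myeloperoxidase gene, read 11.47 and 11.12 against 10.98 and 11.70, with a difference of 0.49 in code B and -0.59 in code A. Ctsg, for cathepsin G, read 10.17 and 9.02 against 9.02 and 9.83, and Prtn3, for proteinase 3, 10.80 and 9.78 against 10.85 and 10.77. Elane, for neutrophil elastase, lay below background in CD34+Flt3hi cells and read 5.72 and 5.44 in CD34+Flt3- cells (adjusted p = 0.167). The factor genes Cebpa (1.21), Gfi1 (1.38) and Spi1 (0.50) did not pass. Among 7 genes of the phagocyte oxidase, Ncf1, the organiser subunit p47phox, rose alone, from 6.83 and 7.69 to 10.21 and 10.36 (adjusted p = 0.00256). Its catalytic partner gene Cybb lay below background in both gates.

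**Figure D2:**
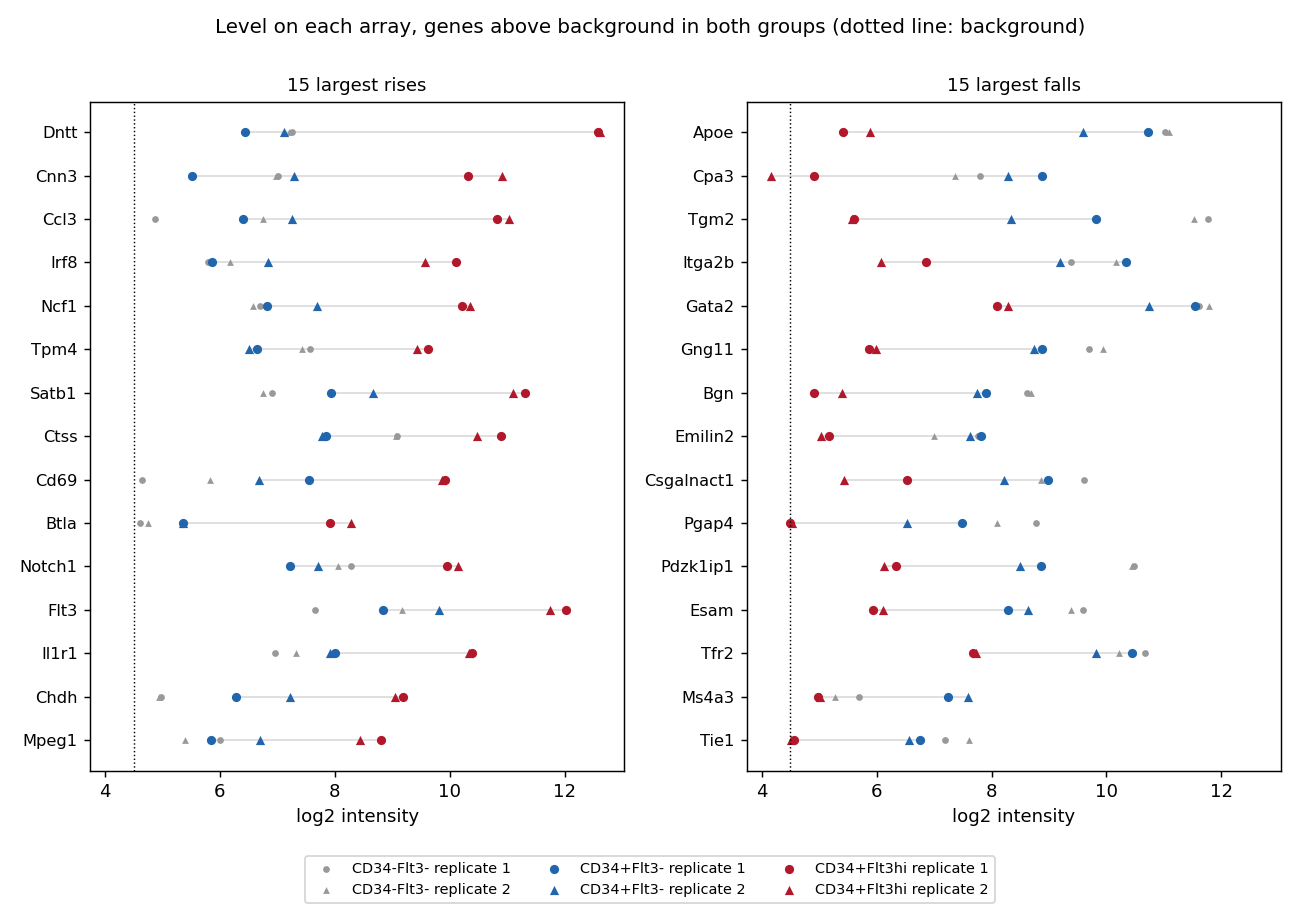
Log2 intensity on each array (horizontal axis) of the 15 largest rises and the 15 largest falls whose mean was above background in both gates. Red is CD34+Flt3hi, blue CD34+Flt3- and grey CD34-Flt3-, circles are replicate 1 and triangles replicate 2, and the dotted line is background at 4.50. Only genes whose arrays did not overlap between the gates were eligible, so the red and blue points lie apart in all 30 by selection. The Dntt points of CD34+Flt3hi cells lie at 12.59 and 12.61.

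Ccl3 led the chemokines. It encodes the inflammatory chemokine MIP-1 alpha and read 10.83 and 11.03 against 6.40 and 7.26 (difference 4.10 ± 0.53, SE; adjusted p = 0.00874). Of 29 chemokine and chemokine receptor genes it was the only rise, and the platelet chemokine gene Pf4 the only fall, with a median of 0.24. Its neighbour in function Ccl4 read 7.67 and 8.06 against 6.35 and 6.82 (1.27, adjusted p = 0.16), and Ccl9 read 11.12 and 9.79 against 8.14 and 8.82 (1.98, adjusted p = 0.107). Cxcr4, the receptor gene for the marrow-retention chemokine, moved with the code, at 6.78 and 5.79 in code B and 8.31 and 8.29 in code A.

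Cytokine and growth factor receptor genes held 2 rises, no fall and a median of 0.16 over 46 genes. Il1r1, the signalling receptor for interleukin 1, read 10.38 and 10.34 against 8.0 and 7.92 (2.40 ± 0.25, SE; adjusted p = 0.00256), with the CD34-Flt3- arrays at 6.96 and 7.33. Its other probe set differed by -0.01. Csf1r, described with the myeloid genes, was the other rise. Il6st, the shared signalling chain of the interleukin 6 family, read 7.59 and 7.43 against 5.80 and 6.03 (1.60, adjusted p = 0.0696), and Il10ra was below background in CD34+Flt3- cells (1.60, adjusted p = 0.0938). The granulocyte factor receptor gene Csf3r (0.08) and the erythropoietin receptor gene Epor (-0.75) did not pass. Tek and Tgfbr3 had the largest downward differences without passing, -2.59 and -2.45 (adjusted p = 0.247 and 0.103), with CD34+Flt3- arrays at 7.54 and 4.74 for Tek and 8.05 and 6.48 for Tgfbr3.

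Large rises also came from genes that shape the cytoskeleton and membrane. Of 31 actin-binding and membrane protein genes 3 rose and none fell, while the median was 0.05. Cnn3, the acidic calponin gene, read 10.32 and 10.92 in CD34+Flt3hi cells against 5.51 and 7.29 in CD34+Flt3- cells, and its other probe sets differed by 1.02 to 4.41. Tpm4, a tropomyosin gene, read 9.62 and 9.42 against 6.65 and 6.50, a 7.71-fold rise (2.95 ± 0.25, SE; adjusted p = 0.00129) that was 2.92 in code A and 2.97 in code B. Emp1, an epithelial membrane protein gene, read 7.30 and 8.19 and lay below background on average in CD34+Flt3- cells, so that it rose at least 9.04-fold, but its other probe set differed by 0.12. The related genes did not follow: Cnn2 differed by 0.20, Tpm1 by -0.31, Tpm3 by 0.13, and Emp3 by 0.00.

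Genes from outside the lists made up the rest of the largest rises. Btla, an inhibitory receptor of lymphocytes, read 7.92 and 8.29 against 5.35 and 5.35 (difference 2.75 ± 0.27, SE; adjusted p = 0.00249). Chdh, for choline dehydrogenase, read 9.19 and 9.05 against 6.28 and 7.22, and Mpeg1, for the macrophage pore protein perforin-2, read 8.81 and 8.44 against 5.84 and 6.70 (adjusted p = 0.0135 and 0.0194). Further genes lay below background in CD34+Flt3- cells and have only a bound, the mean of the bright arrays over that of the dim arrays after readings below background were set to it. Ddx4, a germ cell RNA helicase gene, read 6.79 and 8.70 on the CD34+Flt3hi arrays and rose at least 9.47-fold. Bounds of at least 6.71-fold, 5.60-fold and 5.28-fold were found for the transporter gene Slc35d3, the receptor gene Cd300lb and the methionine sulfoxide reductase gene Msrb3. At least 4.07-fold, 4.02-fold and 3.66-fold were found for the phosphoprotein gene Arpp21, the semaphorin receptor gene Nrp1 and the prostaglandin receptor gene Ptger2. The other probe set of Msrb3 differed by -0.13, and those of Arpp21 by -0.12 to 1.22 and of Nrp1 by 0.18 to 0.95.

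Some of the smaller rises, chosen here after their values were seen, were also genes of immune receptors and their ligands. Il12a, the p35 chain of interleukin 12, read 8.54 and 8.57 against 6.60 and 6.35 (adjusted p = 0.00904). Il18rap, a chain of the interleukin 18 receptor, rose 3.40-fold, and the costimulatory gene Icos and the RNA sensor gene Tlr7 rose at least 2.67-fold and at least 3.15-fold from below background. The other probe sets of Icos differed by 0.48 to 0.89, those of Tlr7 by 0.27 to 0.58 and that of Il18rap by 0.66. P2ry14, a receptor for UDP-sugars, read 9.89 and 9.81 against 8.09 and 8.25, and Esr1, the oestrogen receptor alpha gene, 8.50 and 8.93 against 7.18 and 6.90. Esr1 read 8.20 and 8.35 on the CD34-Flt3- arrays, so that CD34+Flt3- cells had the lowest readings of the 3 gates. Its other probe sets differed by 0.08 to 1.43. Dhrs3, a retinaldehyde reductase gene, read 8.85 and 8.61 against 7.11 and 7.12 (adjusted p = 0.0381). It was the only rise among 21 genes of retinoid and aldehyde metabolism, where Tgm2 and Aldh1a1 fell and the median was 0.05.

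On the other side of the comparison, 5 of 29 measured megakaryocyte and platelet genes fell in CD34+Flt3hi cells, none rose, and the median was -0.79. Over all genes 0.225% fell, 0.385% rose and the median was 0.03. Itga2b (Entrez gene 16399), the platelet integrin chain CD41, read 6.86 and 6.07 against 10.35 and 9.19 in CD34+Flt3- cells. Pf4, platelet factor 4, lay below background in CD34+Flt3hi cells and read 8.0 and 7.13 in CD34+Flt3- cells. The fall was therefore at least 8.37-fold (adjusted p = 0.00641). Rab27b, which acts in granule secretion, and Cavin2, a coat protein of caveolae, fell at least 4.61-fold and at least 4.03-fold in the same way. Their other probe sets differed by less, -1.43 to -0.47 for Rab27b and -1.37 to -1.10 for Cavin2. F2r, a thrombin receptor gene, fell by 1.52, from 10.52 and 9.85 to 8.47 and 8.87, with -0.98 in code A and -2.05 in code B (adjusted p = 0.0444).

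The other members of the list, further platelet genes among them, were dim or missed the threshold. Vwf, for von Willebrand factor, lay below background in CD34+Flt3hi cells, but the CD34+Flt3- arrays read 8.25 and 5.53, a difference of -4.19 in code B and -1.62 in code A (adjusted p = 0.135). The CD34-Flt3- arrays read 11.12 and 10.78. Gp1bb (-1.94, adjusted p = 0.103, with 0.10 in its other probe set), Gp5 (-1.46) and Itgb3 (-1.45) did not pass, and Ppbp, P2ry12 and Thbs1 lay below background in both gates. Plek and Rgs18, both well above background, differed by 0.34 and -0.12. The summed linear intensity of the list was 4433 and 4389 in CD34+Flt3hi cells against 9000 and 5484 in CD34+Flt3- cells.

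Some regulators and membrane genes of the erythroid line fell, and none of the haem and globin genes passed. Of 37 measured erythroid genes 5 fell and none rose, with a median of -0.32, where 0.225% of all genes fell. Gata2 (Entrez gene 14461), a GATA factor of stem, mast and early erythroid cells, read 8.09 and 8.29 against 11.55 and 10.73, a 7.72-fold fall (-2.95 ± 0.27, SE; adjusted p = 0.00166). Its other probe set differed by -1.84. Zfpm1, for the GATA partner FOG1, read 6.41 and 6.64 against 8.76 and 8.44 (adjusted p = 0.00668), and Gfi1b, a repressor needed in both the erythroid and platelet lines, 6.18 and 6.20 against 7.72 and 7.49 (adjusted p = 0.0454). The other probe set of Zfpm1 differed by -0.72. Tfr2, transferrin receptor 2, read 7.67 and 7.73 against 10.44 and 9.82, and the mucin gene Muc13 read 9.0 and 8.26 against 10.87 and 10.05. For Gata2, Zfpm1, Gfi1b, Tfr2 and Muc13 alike, both CD34-Flt3- arrays were above both CD34+Flt3hi arrays.

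Gata1, the main erythroid and megakaryocyte GATA factor, lay below background in CD34+Flt3hi cells and read 6.86 and 5.82 in CD34+Flt3- cells. Its difference of -2.29 did not pass with an adjusted p of 0.139, and it was 0.00384 with only the 4 arrays compared. Klf1, another erythroid master regulator, read 5.69 and 5.31 against 7.95 and 5.96 (adjusted p = 0.822), and Tal1 6.75 and 7.55 against 8.29 and 8.24 (adjusted p = 0.387). Hba-a1 and Slc4a1, for alpha globin and the red cell anion exchanger, lay below background in both gates. The haem pathway genes Urod (-0.16), Uros (0.15) and Fech (-0.30) and the partner gene Lmo2 (0.00) did not pass. Tfrc, the other transferrin receptor gene, read 8.97 and 9.05 against 8.15 and 8.17, the opposite direction to Tfr2, with an adjusted p of 0.479.

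**Figure D3:**
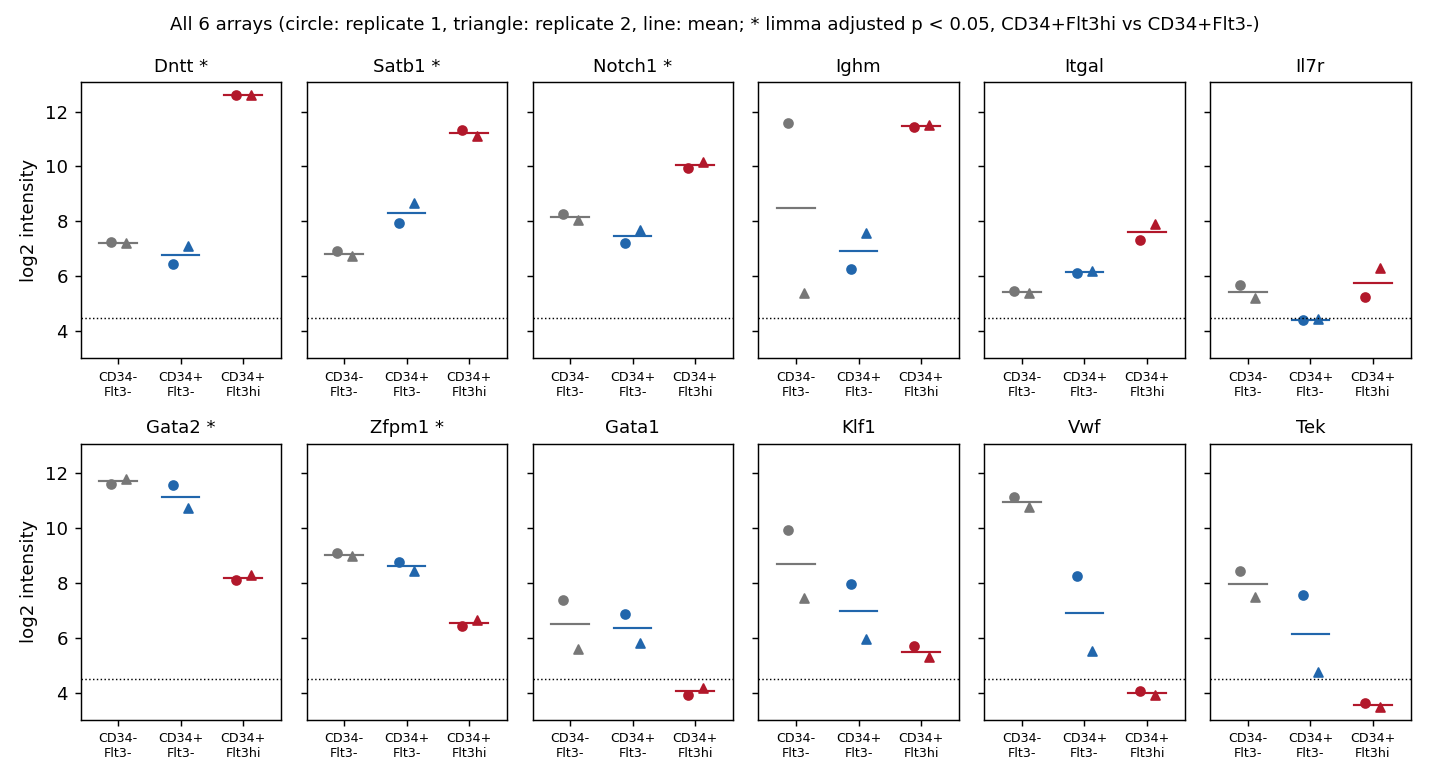
Log2 intensity on all 6 arrays for 12 genes, with circles for replicate 1, triangles for replicate 2 and a line at the mean of each gate. A star marks an adjusted p under 0.05 for CD34+Flt3hi against CD34+Flt3- cells, and the dotted line is background. The replicates of Dntt, Satb1, Notch1, Gata2 and Zfpm1 lie within 1 log2 unit of each other in every gate, while Ighm is split within the CD34-Flt3- gate (11.59 and 5.38) and Vwf and Tek are split within the CD34+Flt3- gate (8.25 and 5.53, 7.54 and 4.74).

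Mast cell genes held some of the largest falls, although part of that list was dim. Of 25 measured genes, 15 had a mean above background, 3 fell, none rose and the median was -0.15. Among all genes 0.225% fell. Slc18a2, the vesicular monoamine transporter gene, lay below background in CD34+Flt3hi cells and read 9.49 and 7.57 in CD34+Flt3- cells, a fall of at least 16.3-fold (adjusted p = 0.00641). Cpa3 (Entrez gene 12873), mast cell carboxypeptidase, read 4.91 and 4.17 against 8.88 and 8.29, with differences of -4.12 in code A and -3.97 in code B. Ms4a2, the beta chain of the IgE receptor, fell at least 2.14-fold, from 6.25 and 4.95, but its other probe set differed by 0.24. The alpha chain gene Fcer1a and the protease genes Mcpt1, Tpsab1 and Prg2 lay below background in both gates. Hdc, the histamine-synthesising enzyme, read 5.80 and 6.15 against 6.16 and 6.19, and Fcer1g, the shared gamma chain, 7.15 and 6.84 against 7.52 and 7.39.

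Promoter sequence is shown for 4 of these genes so that the largest rise can be set beside falls of the platelet and mast cell groups. From RefSeq's start sites in build GRCm38.p6, the 250 bases before the start of 12 genes were searched on both strands for 3 short motifs. These were AGATAA, bound by factors such as Gata2 and Gata1, GAGGAAG, bound by PU.1 and other Ets factors, and CAGGTG, bound by E proteins. The motifs do not overlap in the sequences below. Capitals mark a match, in either orientation, and each line reads 5′ to 3′ on the strand of the gene. Dntt is on the plus strand at chr19:41029025-41029274, Cpa3 on the minus strand at chr3:20242182-20242431, Itga2b on the minus strand at chr11:102469884-102470133 and Pf4 on the plus strand at chr5:90772185-90772434.
Dntt: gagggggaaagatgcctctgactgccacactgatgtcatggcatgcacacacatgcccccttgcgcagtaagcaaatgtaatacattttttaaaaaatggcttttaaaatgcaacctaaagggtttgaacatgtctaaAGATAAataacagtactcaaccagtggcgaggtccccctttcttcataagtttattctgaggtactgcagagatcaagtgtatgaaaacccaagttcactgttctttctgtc
Cpa3: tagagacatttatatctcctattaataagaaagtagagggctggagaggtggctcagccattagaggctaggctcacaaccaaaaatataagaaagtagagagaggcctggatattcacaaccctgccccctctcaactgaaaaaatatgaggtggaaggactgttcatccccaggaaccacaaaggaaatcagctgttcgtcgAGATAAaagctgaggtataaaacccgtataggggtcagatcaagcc
Itga2b: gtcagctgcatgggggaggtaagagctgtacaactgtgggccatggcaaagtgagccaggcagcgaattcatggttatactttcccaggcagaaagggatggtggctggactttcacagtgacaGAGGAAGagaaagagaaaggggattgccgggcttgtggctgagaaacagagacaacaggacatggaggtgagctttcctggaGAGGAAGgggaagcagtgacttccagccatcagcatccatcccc
Pf4: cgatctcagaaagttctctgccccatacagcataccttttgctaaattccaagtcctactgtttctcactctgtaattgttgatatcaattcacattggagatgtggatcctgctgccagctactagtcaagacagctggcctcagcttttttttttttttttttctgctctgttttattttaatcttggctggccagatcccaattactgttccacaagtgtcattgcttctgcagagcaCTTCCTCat
AGATAA was found in the fall Cpa3, 46 bases before the start counted from its first base, and in the rise Dntt, 112 bases before it. Slc18a2 also held it, 230 bases before its start. GAGGAAG was found at 126 and 44 bases before the start of Itga2b and, on the other strand, at 9 bases before that of Pf4. CAGGTG was found in none of the 4. Among all 32851 promoters of this length, 9.99% held AGATAA, 10.6% GAGGAAG and 17.2% CAGGTG. None of the 3 motifs was found for Gata2, Notch1, Cnn3 or Ccl3. Apoe, Satb1 and Irf8 held only CAGGTG, each in 1 of several start sites. A match is a description of letters and not a bound site.

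Stem-cell-associated genes had the most falls of the lists used, 8 of 46 measured genes with no rise. The megakaryocyte and platelet list held 5 falls among 29 genes, and 0.225% of all genes fell. Some falls are counted in more than 1 list, as are Tgm2 and Aldh1a1 here and in the retinoid and aldehyde list. The counts of the lists therefore do not stand for separate genes, and not every fall of this list is named in this paragraph. The median was -0.73, with -0.38 in code A and -1.10 in code B. In 30 of the 46 both CD34+Flt3hi arrays lay below both CD34+Flt3- arrays, as in 17.7% of all genes. Apoe (Entrez gene 11816), apolipoprotein E, read 5.42 and 5.88 against 10.73 and 9.59, with the CD34-Flt3- arrays at 11.02 and 11.08. Tgm2, tissue transglutaminase, read 5.61 and 5.57 against 9.82 and 8.33, and its other probe sets differed by -4.29 to -0.40. Esam, an endothelial adhesion molecule also found on stem cells, read 5.94 and 6.12 against 8.29 and 8.64 (difference -2.44 ± 0.26, SE; adjusted p = 0.00312). The angiopoietin receptor family gene Tie1 read 4.57 and 4.51 against 6.76 and 6.57 (adjusted p = 0.00904). Aldh1a1, Grb10 and the channel gene Trpc6 lay below background in CD34+Flt3hi cells, with falls of at least 10.6-fold, 11.6-fold and 1.97-fold. The other probe sets of Grb10 differed by -0.51 to 0.12.

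Many well-known stem cell genes did not pass. Mecom read 7.0 and 7.14 against 8.67 and 7.41 (difference -0.97, adjusted p = 0.749), Procr 7.65 and 7.20 against 8.47 and 7.93 (-0.77, adjusted p = 0.58) and Meis1 9.35 and 9.68 against 10.48 and 9.93 (-0.69, adjusted p = 0.477). Hlf differed by -0.34 and Slamf1, for the stem cell antigen CD150, by -1.24. Ndn, which came nearest to the threshold, read 6.53 and 7.07 against 8.42 and 8.06 (-1.44, adjusted p = 0.0689), and its other probe sets differed by -1.47 to 0.01. Several of these differed mainly in code B, with differences in codes A and B of -0.26 and -1.67 for Mecom, -0.19 and -1.78 for the plexin gene Plxnc1 and 0.18 and -1.51 for the transcription elongation gene Mllt3. Abcb1b read the other way, 8.59 and 8.47 against 7.84 and 7.25, without passing (adjusted p = 0.276).

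Further large falls lay outside the lists. Gng11, a G protein gamma subunit gene, read 5.87 and 5.99 against 8.87 and 8.73, a 7.31-fold fall (-2.87 ± 0.25, SE; adjusted p = 0.00129). The proteoglycan gene Bgn read 4.91 and 5.40 against 7.91 and 7.75 and the matrix glycoprotein gene Emilin2 5.18 and 5.03 against 7.82 and 7.62. Csgalnact1, which starts chondroitin sulphate chains, read 6.54 and 5.44 against 8.98 and 8.21, Pgap4, of GPI anchor processing, 4.49 and 4.53 against 7.48 and 6.54, and Pdzk1ip1 6.34 and 6.13 against 8.85 and 8.50. In Bgn, Pdzk1ip1, Gng11 and Pgap4 both CD34-Flt3- arrays were above both CD34+Flt3- arrays. Chosen after their values were seen, the SNARE genes Vamp5 and Vamp8 fell 2.90-fold and 2.18-fold and Thy1, the CD90 antigen gene, 3.01-fold, from 6.80 and 6.87 to 5.20 and 5.30.

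**Figure D4:**
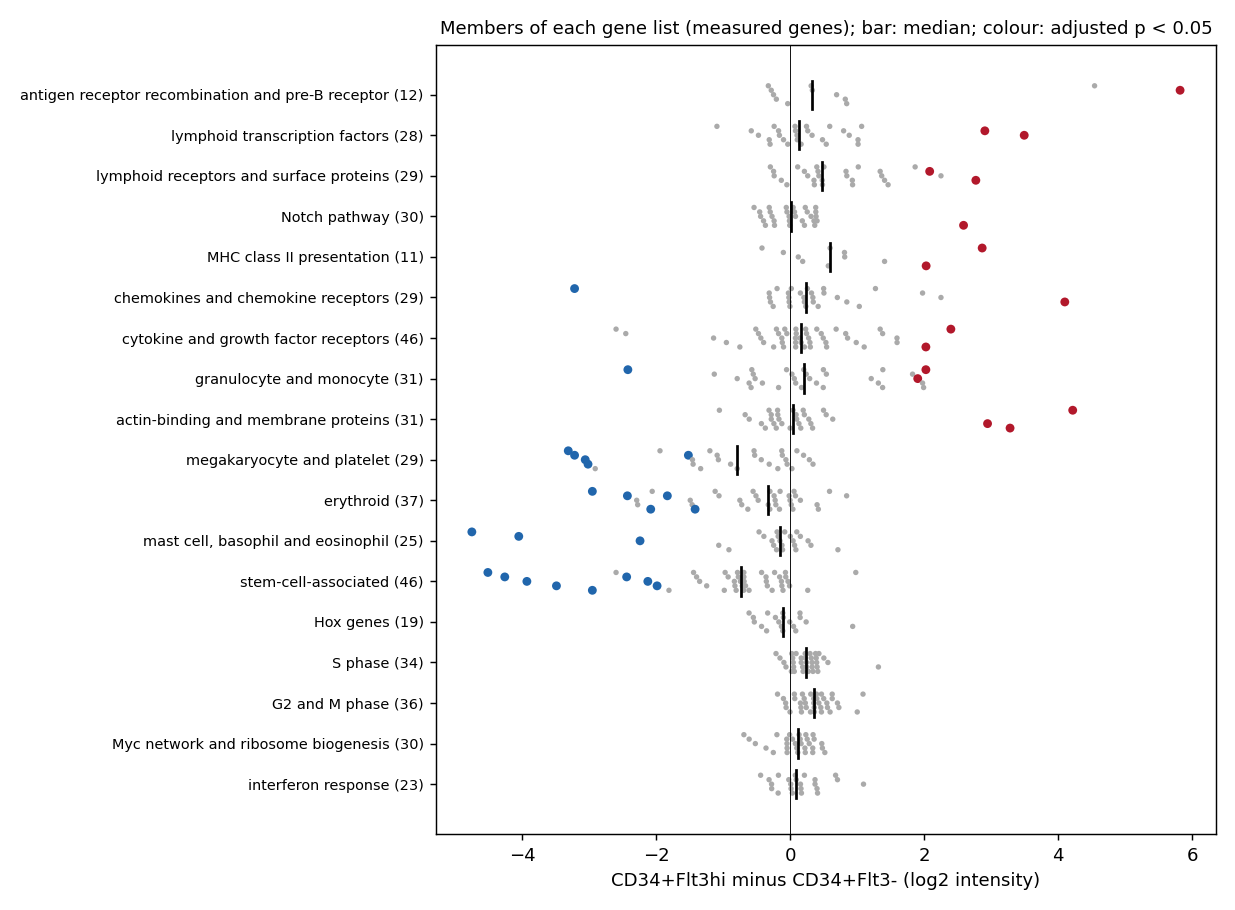
Difference between CD34+Flt3hi and CD34+Flt3- cells (log2 intensity) of each measured gene in 18 gene lists, with the number of genes in brackets and a bar at the median. Red and blue points passed limma's threshold upward and downward and grey points did not. Blue points gather in the megakaryocyte, erythroid, mast cell and stem-cell-associated lists, whose medians are -0.79, -0.32, -0.15 and -0.73, while no gene passed in the Hox, S phase, G2 and M phase, Myc and interferon lists.

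None of the cell cycle genes passed, where 0.61% of all genes did, and the medians of their lists were above 0. The 36 genes of G2 and M phase had a median of 0.36, and in 27 of them both CD34+Flt3hi arrays lay above both CD34+Flt3- arrays and in none below, against 22.7% and 17.7% of all genes. Ect2, a cytokinesis regulator, differed most, at 8.0 and 7.66 against 6.87 and 6.61 (1.09, adjusted p = 0.4), while Mki67 differed by 0.23, Cdk1 by 0.07 and Cdc20 by -0.10. The 34 S phase genes had a median of 0.24, with Ccne2, a cyclin of S phase entry, at 5.74 and 6.06 against 4.92 and 4.24 (1.32, adjusted p = 0.204). Among 23 cell cycle inhibitors, D cyclins and related genes the median was 0.26, with Cdkn1a at 0.91, Cdkn1b at 0.45 and Cdkn1c below background in CD34+Flt3hi cells.

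No gene passed in the lists of Hox genes, the Myc network and ribosome biogenesis, glycolysis and hypoxia, interferon response or immediate early and stress genes. With 0.61% of all genes past the threshold, lists of this size would hold few calls in any case. Their medians were -0.11 over 19 genes, 0.13 over 30, 0.07 over 20, 0.09 over 23 and 0.03 over 27, in that order. Hoxa9 read 11.24 and 11.36 against 10.48 and 10.25 (0.93, adjusted p = 0.103), whereas Hoxb4 differed by -0.53 and Hoxa5 by -0.11. Hif1a (0.88), Myc (0.34), Irf1 (0.71) and Fos (0.00) are examples from the others. Of 4 sex-linked genes none passed, and their median was 0.16.

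Markers of mature cells that a sort could carry over did not pass, apart from 1 endothelial marker. Only 0.61% of all genes passed, so lists of this size would hold few calls in any case, and carry-over was not tested. No gene passed among 6 mature erythroid, 15 neutrophil and monocyte, 13 B cell, 17 T and NK cell, 14 dendritic and 14 stromal and bone markers, with medians between -0.03 and 0.14, and 52 of their 79 entries had a mean above background in at least 1 of the gates. Some of the markers, Hba-a1, S100a8, S100a9, Ltf, Ms4a1, Cd3g and Cd3d, lay below background in both gates. Above it in at least 1 gate were 4 of 6 erythroid and 9 of 15 neutrophil and monocyte markers. The same held for 8 of 13 B cell and 10 of 17 T and NK cell markers. Summed linear intensities were 490 and 514 on the CD34+Flt3hi arrays against 476 and 523 for neutrophil and monocyte markers, 822 and 842 against 733 and 653 for B cell markers, and 646 and 647 against 666 and 675 for T and NK cell markers. For dendritic markers they were 680 and 630 against 549 and 587, for stromal markers 863 and 863 against 769 and 680, and for erythroid markers 710 and 871 against 779 and 910. The B cell gene Blnk read 5.89 and 5.52 against 4.83 and 4.20 (adjusted p = 0.151). The dendritic gene Itgax read 5.47 and 5.81 against 4.45 and 4.45 (adjusted p = 0.107). Both were at least 2-fold higher in each code, as were 0.846% of all genes. Among 15 endothelial markers, with sums of 1671 and 1875 against 1602 and 1808, Esam alone passed, and Cdh5 lay below background in both gates.

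Of the 111 genes, 58 had further probe sets, and in 14 of these some probe set differed in the opposite direction, none of them past the threshold when probe sets were tested singly. Averaging all probe sets of a gene left 65 of the 111 past the threshold. Among the genes described here, Csf1r, Il1r1, Rab27b, Cavin2, Ms4a2, Zfpm1, Muc13, F2r, Csgalnact1, Arpp21, Msrb3 and Nrp1 then missed it, and so did Esr1, Icos, Il18rap, Tlr7 and Vamp5. Flt3, Ptger2 and Vamp8, which have 1 probe set each, missed it in that fit too.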

How the data were processed

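RNA of 3 LSK gates was measured on 6 arrays, 2 per gate. The values used are the intensities the authors deposited in the series' value table. RMA, the robust multi-array average, is named in the submitters' processing notes without a version. The deposited intensities run on a linear scale, as inferred from their range, and their log2 was taken here. The platform annotation gave 1 symbol to 34945 of 45101 probe sets, several to 932 and none to 9160, and 64 were controls. Symbols were updated by Entrez identifier, of which 99.4% matched. Each gene was read from its probe set with the highest mean over the 6 arrays. The 90th percentile of 27 probe sets for bacterial transcripts, all arrays pooled, served as background. A gate with a mean under background has only a bound ("at least"), in which its dim readings take the background value.

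A linear model of gate means was fitted to all 6 arrays (limma 3.58.1, R 4.3.3), with an intensity trend. The error had 3 residual degrees of freedom plus 6.86 from the prior, and the median residual SD was 0.24. P-values are two-sided and Benjamini-Hochberg adjusted over all 18193 genes. An exact permutation test of 2 arrays against 2 has too few arrangements to pass 0.05, so none was run. The pipeline was tested on simulated data. Arrays have no depth, and their number limits the precision. Control probe sets at the 3′ end of Gapdh read 6.59 and 8.42 times those at its 5′ end on the CD34+Flt3hi arrays. On the CD34+Flt3- arrays the ratios were 6.83 and 7.50. For Actb they were 3.69 and 3.80 against 3.25 and 4.44. The effect of this 3′ bias on single probe sets was not tested. Named genes were the sort antigens, the 15 largest rises and falls above background in both gates, and the 8 largest bounds in each direction. Those rises, falls and bounds were taken only from genes whose arrays did not overlap between the gates. List members past the threshold, and further list members as values, were also named. Others are said to be chosen after their values were seen. The comparison, the gene lists and the genes searched for promoter motifs were chosen with earlier results of these data known. Promoters came from RefSeq. Alternatives were the title code as a block, no trend, a robust prior, only the 4 arrays compared, repeated quantile normalization, median centring, leaving out dim genes, averaging a gene's probe sets, dropping those whose identifier carries x or s, testing probe sets singly, an adjusted p under 0.10, a 2-fold minimum, adding 16 before the log2, and leaving out each array. No method of the study states a block, so the title code was used only as an alternative. Same-code arrays of the 2 gates deviated from their gate means with a correlation of 0.0658 across genes. With only 2 pairs this cannot decide whether the codes pair the arrays, and Hes1 and Cxcr4 moved with the code. Figures were drawn with matplotlib in Python.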

Additional observations from a re-analysis of the deposited data

Results flagged for a closer look

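Probe sets that carry no single gene symbol stand outside the comparison of named genes, and some of them passed limma's threshold when tested as a separate table. Of 9160 probe sets without a symbol 11 were higher in CD34+Flt3hi cells and 4 lower, and of 932 with several symbols 1 was lower. The probe sets with a difference of at least 2 log2 units are given by their identifiers, since no gene is named for them here. Probe set 1442812_at read 8.55 and 8.49 on the CD34+Flt3hi arrays and lay below background on the CD34+Flt3- arrays at 3.45 and 3.52, a difference of 5.04 (adjusted p = 3.12e-05). The other higher ones were 1457656_s_at (3.26), 1438125_at (3.25), 1437699_at (2.50), 1440842_at (2.13) and 1456893_at (2.06). Lower in CD34+Flt3hi cells were 1418490_at (-3.20) and 1447174_at (-2.62), and 1454269_s_at, which carries several symbols, differed by -3.24.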

How the results depend on the processing

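The 55 named genes past the threshold kept their direction under the alternatives that give each gene 1 value, while 14 of all 111 genes had a further probe set of opposite direction. All 55 stayed past it with a robust prior, with only the 4 arrays compared, without either CD34-Flt3- array and with the code as a block, and 54 of 54 did when dim genes were left out. They numbered 49 with no trend, 52 after repeated quantile normalization and after median centring, 51 with 16 added, 41 with the mean of probe sets, 52 of 53 without x or s probe sets, 18 when either CD34+Flt3hi array or CD34+Flt3- replicate 1 was left out, and 36 without CD34+Flt3- replicate 2. The replicate block gave 444 higher and 226 lower genes, from 1 residual degree of freedom and a prior of 44.2, and the 4 arrays alone 199 and 101. The mean of probe sets gave 41 higher and 28 lower, and repeated quantiles 69 lower. Leaving out 1 array gave 11 to 199 higher and 6 to 101 lower genes. The cause of these shifts was not tested. Among named genes that did not pass, the sign turned for Ccr9 (-0.29 without x or s probe sets) and, with single arrays left out, for Kit (-0.84 to 0.61, with 0.09 without CD34+Flt3hi replicate 2), Mcpt8 (-0.26 to 1.69), Fscn1 (-1.48 to 0.15), Kdm5d (-0.015 to 1.40) and Klrd1 (-0.13 to 1.04). Genes near background have compressed differences, and 26.7% of genes had a mean below it.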

Other observations

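Besides Ighm, 2 genes differed by at least 4-fold in both title codes without passing limma's threshold. St6gal1, a sialyltransferase gene, read 6.60 and 6.86 in CD34+Flt3hi cells against 4.50 and 4.57 in CD34+Flt3- cells, a difference of 2.20 (adjusted p = 0.0928). Its CD34-Flt3- arrays read 6.16 and 4.49, so that replicate 1 lay near the CD34+Flt3hi arrays, as it did for Ighm. Gem, a small GTPase gene, read 6.22 and 7.49 against 4.02 and 5.24, with code A above code B in both gates (2.23, adjusted p = 0.105).

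With only the 4 arrays compared, 189 genes passed limma's threshold that had not passed in the fit of all 6. In 38 of them the 2 CD34-Flt3- arrays lay over 2-fold apart, against 7 of the 111 genes that passed in both. The gap between those arrays enters the error of the fit of all 6, so this contrast follows in part from how the genes were picked. The share over all genes is not given.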
